A study of Homo sapiens with 8 samples.

Results

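The subunits of RNA polymerase I, II and III were followed as knockouts in a pooled CRISPR screen of PC9 cells, an EGFR-mutant non-small cell lung cancer line. Members were chosen by gene name, as every gene in the guide count table whose symbol is POLR1, POLR2 or POLR3 followed by a letter. That rule found 29 of the 18053 gene names in the table. The cells expressed Cas9 and carried the TKOv3 library, which gives a cell a single guide RNA against a single gene, with at most 4 guides per subunit. The measurement is the number of sequencing reads of each guide, taken as a measure of how common cells with that knockout were. There were 4 groups of 2 libraries each, all of the same Cas9 line. They were cells kept for 72 h in 10 µM erlotinib, cells kept for 72 h in 0.1 µM osimertinib, cells kept for 72 h in vehicle (untreated), and cells harvested when drug was added (T0). Both drugs inhibit the EGFR kinase. The methods add that untreated cells were split while the assay ran and that dead cells were not harvested. The labels give infection in duplicate but do not say how these duplicates relate to the libraries, so p-values cover the spread between guides or between these libraries, part of which may be technical.

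RNA polymerase I (Pol I) transcribes the large ribosomal RNA precursor, Pol II transcribes messenger RNA, and Pol III transcribes transfer RNA, 5S ribosomal RNA and other short RNAs. Each enzyme has a core of related subunits built around its own pair of largest subunits. Some smaller subunits are shared by all of the enzymes, and others are shared by Pol I and Pol III alone. In the table, 3 members belong to Pol I only (POLR1A, POLR1B, POLR1E), 2 to Pol I and Pol III (POLR1C, POLR1D), 10 to Pol III only (among them POLR3A to POLR3F, POLR3G, POLR3GL and POLR3K), 7 to Pol II only (POLR2A to POLR2D, POLR2G, POLR2I, POLR2J) and 5 to all of the polymerases (POLR2E, POLR2F, POLR2H, POLR2K, POLR2L). Of the remaining members, POLR2J2 is a copy of POLR2J, and POLR2M encodes a protein that binds Pol II and is not part of its core. The Pol I subunits CD3EAP, TWISTNB and ZNRD1 and the Pol III subunit CRCP carry other symbols and are described with the related lists.

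The 29 members had 107 guides, and 101 of these passed the filter that removes the lowest 5% of guides by abundance. The 6 guides lost were 2 against POLR2G and 1 each against POLR2D, POLR2L, POLR3B and POLR3D. Gene values needed at least 2 guides, so POLR3G and POLR2J2, with 1 guide each, were not tested. The remaining 27 members were among the 17761 genes tested. Libraries held between 32096281 and 39200466 reads, with median counts per guide between 445 and 549. Member guides had median counts of 203 and 220 in the erlotinib libraries, 243 and 232 in the osimertinib libraries, 201 and 215 in the untreated libraries, and 382 and 367 in the T0 libraries. Gene values are given as L2FC, the log2 fold change of the median guide minus that of non-targeting guides. The error printed beside each is the SD between guides, n being the number of guides. A gene was called where its empirical p, from draws of non-targeting guides, stayed under 0.05 after Benjamini-Hochberg adjustment over all tested genes. The draws cannot give a p below 1e-04, so adjusted p-values repeat between genes.

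Guides against Pol II subunits were scarce at T0. Averaged over the T0 libraries, the median guide stood at 6.91 CPM (counts scaled to library size) for subunits of Pol II only and at 7.81 CPM for those shared by all of the polymerases. The median was 10.6 CPM for subunits of Pol III only, 12.4 CPM for Pol I only and 16.8 CPM for Pol I and Pol III, against 14.1 CPM over all targeting guides and 15.1 CPM over non-targeting guides. By gene, the lowest median was that of POLR2G at 2.49 CPM, followed by POLR2C at 4.89 CPM, and both lay below the lower quartile of all targeting guides, at 9.76 CPM. POLR2A, which encodes the largest Pol II subunit and its catalytic center, stood higher at 11.5 CPM, as did POLR2J at 17.0 CPM. Abundance before T0 was not analysed here, so loss of cells before T0 and a low starting count of these guides cannot be told apart. All values below start from T0.

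**Figure D1:**
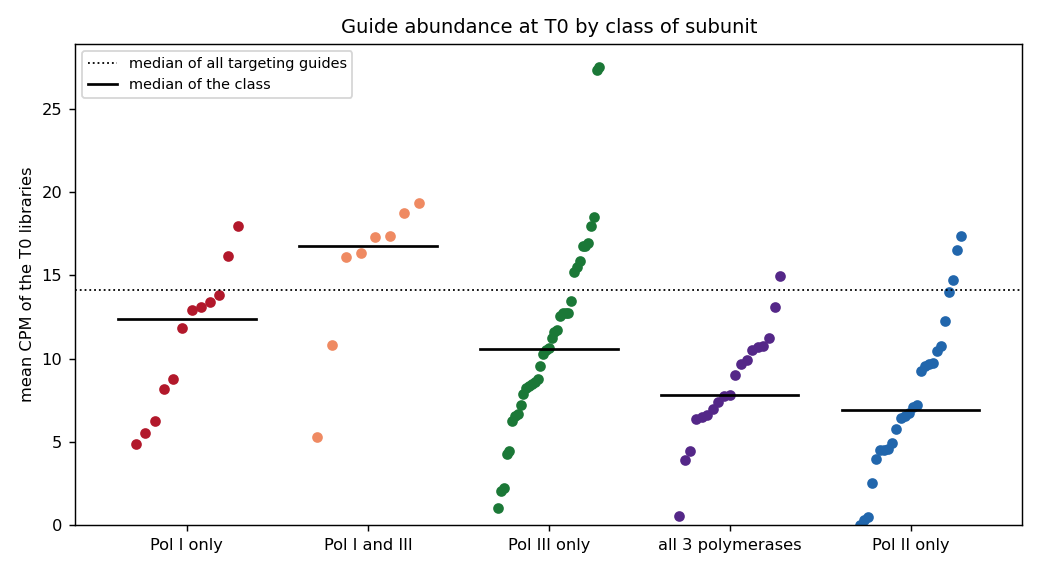
Abundance of each guide at T0, as the mean CPM of the 2 T0 libraries, by class of subunit. Points are guides, solid bars are class medians and the dotted line is the median of all targeting guides; medians run from 6.91 CPM for Pol II only to 16.8 CPM for Pol I and Pol III.

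Essentiality was measured as the change in abundance over 72 h without drug. In untreated relative to T0, 25 of the 27 tested members were called lower and 0 were called higher, with 0 also higher at an unadjusted p under 0.05 and 0 with DESeq2. Among all genes, 66.9% were called lower and 0.169% higher by the same rule, and the median gene stood at −0.17. Non-targeting guides match no site in the genome, and most targeted genes fell below them. The median member stood at −0.84. When values were instead set against the median of all genes and tested across libraries with limma, 22 of the 27 members were called lower, against a background of 9.98% of genes lower and 1.36% higher. The members not called on that scale were POLR2A, POLR2J, POLR2K, POLR2M and POLR3GL, and the sign of POLR2A turned there, with 0.05 (adjusted p = 0.667).

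By class, the median L2FC was −1.22 for Pol I only, −0.95 for Pol I and Pol III, −0.96 for Pol III only, −0.78 for subunits shared by all of the polymerases and −0.72 for Pol II only. The member with the lowest value was POLR2L, a small zinc-binding subunit of every polymerase, at −1.78 ± 0.20 (n = 3 guides, adjusted p = 0.00033). Only 4 of all 17761 genes were lower, which gives POLR2L rank 5. Its log2 abundance, set against non-targeting guides and the average of the T0 libraries, was −1.14 and −1.31 in the erlotinib libraries, −0.82 and −1.53 in the osimertinib libraries, and −1.54 and −1.69 in the untreated libraries. The T0 libraries lay at −0.13 and 0.13, equal in size because their mean is the reference. Erlotinib and untreated did not overlap, whereas osimertinib replicate 2 came close to untreated replicate 1.

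Subunits of Pol III were also among the most depleted. POLR3A, the largest subunit of Pol III, stood at −1.55 ± 0.85 (n = 4 guides, adjusted p = 0.00033). A single guide lay far above the others, at 0.10, whereas 3 guides were called lower on their own. The log2 abundance of POLR3A knockouts was −0.90 and −1.03 under erlotinib, −1.41 and −1.26 under osimertinib, and −1.40 and −1.58 in untreated. For POLR3A, only the erlotinib libraries stood clear of untreated.

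Further named members of Pol III lay between this value and −0.68. POLR3C (−1.47 ± 0.34) and POLR3F (−0.91 ± 0.30) belong with POLR3G or POLR3GL to a subcomplex that serves initiation, and POLR3B (−1.43 ± 0.66, n = 3 guides) is the second largest subunit. POLR3K, which serves termination, stood at −0.96 ± 0.50. POLR3D (−0.68 ± 0.20, n = 3 guides) and POLR3E (−0.72 ± 0.29), which pair in a further subcomplex of Pol III, were the least depleted subunits of Pol III only apart from POLR3GL. Unless stated, these values rest on 4 guides, and each had an adjusted p of 0.00033.

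POLR3G and POLR3GL encode alternative versions of the same Pol III subunit, so that a cell can hold either. POLR3GL stood at −0.21 ± 0.13 (n = 4 guides, adjusted p = 0.00193), close to the median of all genes, and 0 of its guides were called on their own. Its log2 abundance was −0.26 and −0.17 under erlotinib, −0.19 and −0.17 under osimertinib, and −0.17 and −0.21 in untreated, and these groups overlapped. The single POLR3G guide had 26.2 and 24.2 CPM under erlotinib, 28.5 and 26.8 CPM under osimertinib, 29.2 and 28.5 CPM in untreated, and 29.4 and 25.3 CPM at T0. Untreated thus lay within the range of T0 for POLR3G, with an L2FC of −0.10 relative to non-targeting guides (guide-level adjusted p = 0.707).

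The members named POLR1 were all depleted. Of the Pol I subunits under other symbols, CD3EAP stood at −0.81 ± 0.23 and ZNRD1 at −0.55 ± 0.46. TWISTNB, at −0.24 ± 0.38, lay near the all-gene median of −0.17. POLR1B, the second largest subunit, stood at −1.36 ± 0.19, POLR1A, the largest subunit, at −1.22 ± 0.35, and POLR1E, which joins Pol I to its initiation machinery, at −0.84 ± 0.24. POLR1C stood at −1.05 ± 0.40 and POLR1D at −0.84 ± 0.48. These proteins pair with each other in Pol I and in Pol III. All of the Pol I values rest on 4 guides and had an adjusted p of 0.00033.

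Among the subunits of Pol II only, POLR2G stood lowest at −0.96 ± 0.03 (n = 2 guides), and POLR2B (−0.73 ± 0.27), POLR2C (−0.75 ± 0.09), POLR2D (−0.72 ± 0.37, n = 3 guides) and POLR2I (−0.55 ± 0.43) lay above it. The POLR2G value leaves out its guides that fell to the filter. Of these, the first had 11 and 13 reads at T0 and 15 and 18 in untreated. The other had 13 and 24 reads at T0 and 6 and 24 in untreated. POLR2G and POLR2D form the stalk of Pol II, POLR2B is its second largest subunit, and POLR2C pairs with POLR2J. POLR2A stood at −0.16 ± 0.15 (n = 4 guides, adjusted p = 0.00874), at the 54.5th percentile of all genes, and 0 of its 4 guides were called on their own. This call was lost with limma, and also without T0 replicate 2, without untreated replicate 1 or without untreated replicate 2. POLR2J stood at −0.12 ± 0.08 (n = 2 guides, adjusted p = 0.137). Near-identical copies of POLR2J exist, so its guides may cut at more than a single gene, and the POLR2J2 guide stood at −0.32 (guide-level adjusted p = 0.455). POLR2M, outside the core, stood at −0.10 ± 0.15 (adjusted p = 0.088).

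Of the shared subunits other than POLR2L, POLR2E stood at −1.11 ± 0.35, POLR2F at −0.78 ± 0.39, POLR2H at −0.71 ± 0.22 and POLR2K at −0.33 ± 0.31 (n = 3 guides for POLR2K and 4 for the others). Single guides were also tested against the spread between libraries with the quasi-likelihood F-test. In untreated relative to T0, 55 of the 101 member guides were called lower and 0 higher (0 higher also at an unadjusted p under 0.05), against 5.93% of all guides called lower. By enzyme, these were 38 of 55 guides against Pol I and Pol III subunits and 17 of 41 against Pol II and shared subunits.

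Each member was also set against the 10 nearest tested genes on each side of its chromosome, a comparison chosen after the data were seen. The medians of these neighbours lay between −0.10 for POLR2C and −0.44 for POLR2F. After subtraction, POLR2L kept −1.49, POLR3C −1.30 and POLR1B −1.16. POLR2F and POLR2D were reduced to −0.34 each. POLR2A stood at −0.01, POLR3GL at −0.06, POLR2M at 0.06 and POLR2J at 0.08 relative to their neighbours. POLR3K had 10 neighbours in all. For the drugs relative to untreated, the called values that moved by more than 1.5 times were POLR2L under erlotinib (0.28 after subtraction, against 0.43) and POLR1A under osimertinib (0.17 after subtraction, against 0.31).

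**Figure D2:**
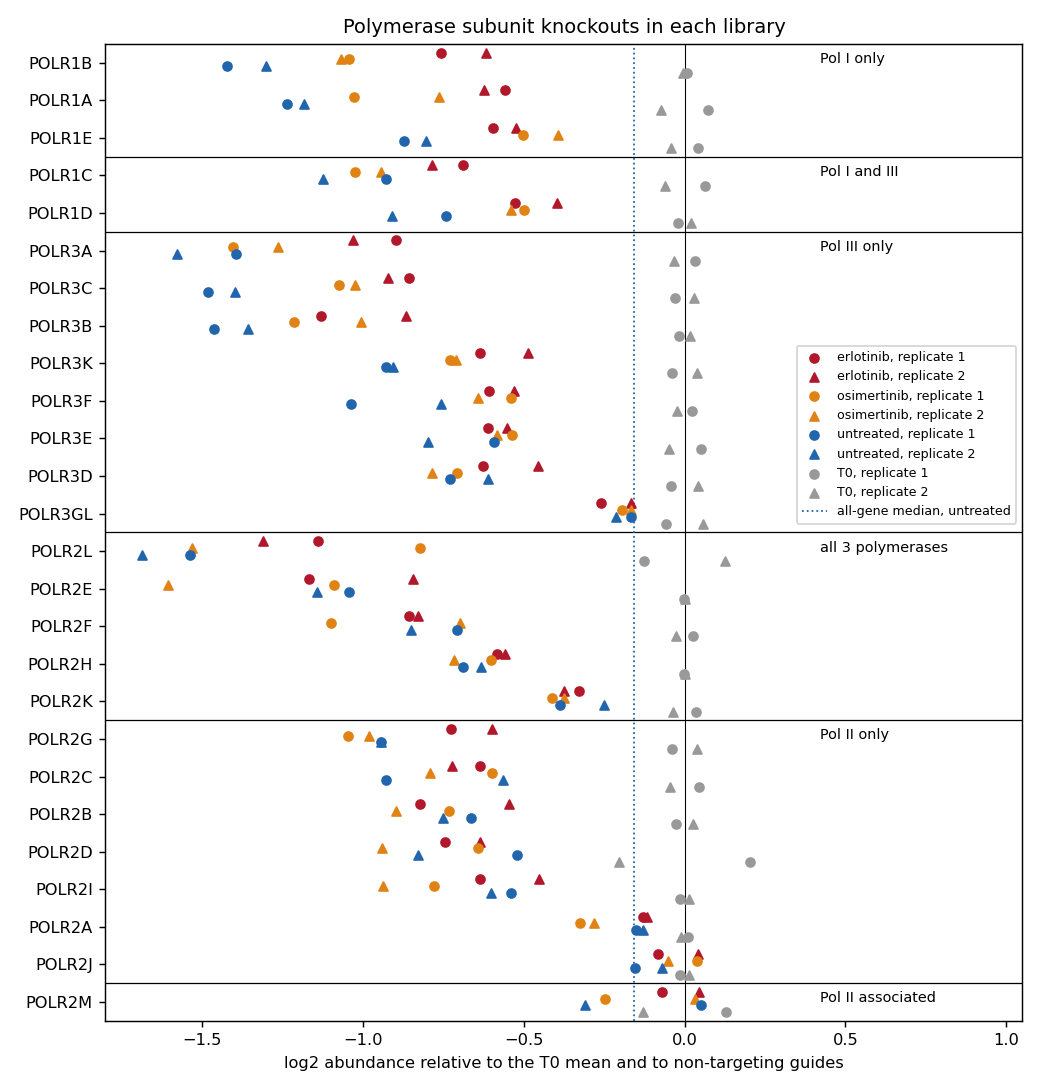
Log2 abundance of 26 tested members in each library, relative to the mean of T0 and to the non-targeting median. Rows are genes grouped by enzyme, symbols are replicates and the dotted line is the all-gene median in untreated; for POLR1B and POLR1A, both erlotinib libraries lie above both osimertinib libraries, which lie above both untreated libraries.

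Knockouts of most Pol I and Pol III subunits, 11 of 14 tested, were more abundant under erlotinib than in untreated, as were those of POLR2G, POLR2L and POLR2M. The difference between the classes was not tested. In erlotinib relative to untreated, 14 of the 27 members were called higher and 0 lower, with 0 lower at an unadjusted p under 0.05 and 0 with DESeq2. Among all genes, 6.36% were called higher and 4.71% lower. The median member stood at 0.20, against 0.00 for all genes. Called higher were 3 of 3 subunits of Pol I only, 2 of 2 of Pol I and Pol III, 6 of 9 of Pol III only, 1 of 7 of Pol II only, 1 of 5 of those shared by all of the polymerases, and POLR2M. The class medians were 0.52 for Pol I only, 0.30 for Pol I and Pol III, 0.29 for Pol III only, 0.06 for the shared subunits and 0.02 for Pol II only.

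POLR1B had the highest value of the members, at 0.58 ± 0.28 (n = 4 guides, adjusted p = 0.00267), and POLR1A followed at 0.52 ± 0.29 (n = 4 guides, adjusted p = 0.00267). The log2 abundance of POLR1B knockouts relative to T0 was −0.76 and −0.62 under erlotinib, −1.04 and −1.07 under osimertinib, and −1.42 and −1.30 in untreated. That of POLR1A knockouts was −0.56 and −0.62 under erlotinib, −1.03 and −0.76 under osimertinib, and −1.24 and −1.18 in untreated. For both genes no libraries of different groups overlapped. POLR2L was the third by size, at 0.43 ± 0.12 (n = 3 guides, adjusted p = 0.00267), with the libraries given above.

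Members called higher in the Pol I and Pol III classes also included POLR1C (0.27 ± 0.21), POLR1D (0.34 ± 0.45), POLR1E (0.29 ± 0.25), POLR3A (0.39 ± 0.25), POLR3B (0.33 ± 0.29), POLR3C (0.40 ± 0.22), POLR3F (0.30 ± 0.13) and POLR3K (0.29 ± 0.28), with adjusted p-values between 0.00267 and 0.00708. The subcomplex partners POLR3D (0.13 ± 0.15, adjusted p = 0.312) and POLR3E (0.09 ± 0.25, adjusted p = 0.417) were not called, and neither was POLR3GL (−0.05 ± 0.11, adjusted p = 0.637). In the Pol II class, POLR2G was called at 0.28 ± 0.18 (n = 2 guides, adjusted p = 0.0434). Without the filter on low guides, POLR2G stood at 0.16 and was not called (adjusted p = 0.109). The other 6 lay between −0.04 for POLR2C and 0.16 for POLR2I. The shared subunits other than POLR2L lay between −0.05 for POLR2K and 0.08 for POLR2F. POLR2M was called at 0.20 ± 0.33 (n = 4 guides, adjusted p = 0.0299), although its untreated libraries, at 0.05 and −0.31, lay on both sides of the non-targeting level and its value was −0.02 without untreated replicate 2.

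The members were also set beside other genes depleted to a like extent without drug. Between −2 and −0.5 in untreated relative to T0 there were 22 members and 1233 other genes. Under erlotinib, 39.5% of the other genes were called higher and 8.43% lower relative to untreated, with a median of 0.14. Of the members in this range, 11 of 13 subunits of Pol I and Pol III were called higher, with a median of 0.30, and 2 of 9 Pol II and shared subunits, with a median of 0.06. These sets were not equally depleted, with medians of −1.05 for Pol I and Pol III and −0.75 for Pol II and shared subunits in untreated relative to T0. Between −2 and −1, where 54.4% of other genes were called higher (median 0.24), 7 of 7 Pol I and Pol III subunits and 1 of 2 Pol II and shared subunits were. Between −1 and −0.5, 34.3% of other genes were called higher (median 0.12), and 5 of 13 members in all (median 0.13), a share near that background. These 5 were 4 of 6 Pol I and Pol III subunits and 1 of 7 Pol II and shared subunits. Over the whole range between −2 and −0.5 in untreated relative to T0, the 13 Pol I and Pol III subunits lay between −1.55 and −0.68. The 9 Pol II and shared subunits lay between −1.78 and −0.55. The untreated libraries enter both comparisons with opposite sign, so an error in them would raise the value in the first as it lowers that in the other. POLR2E and POLR1C, a pair picked after their values were seen, stood close together without drug (−1.11 and −1.05). Under erlotinib relative to untreated, POLR2E stood at 0.06 ± 0.13 (adjusted p = 0.544) and POLR1C at 0.27 ± 0.21 (adjusted p = 0.00592). The other Pol II and shared subunits depleted about as far or farther, POLR2G (−0.96) and POLR2L (−1.78), stood at 0.28 and 0.43 and were both called.

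**Figure D3:**
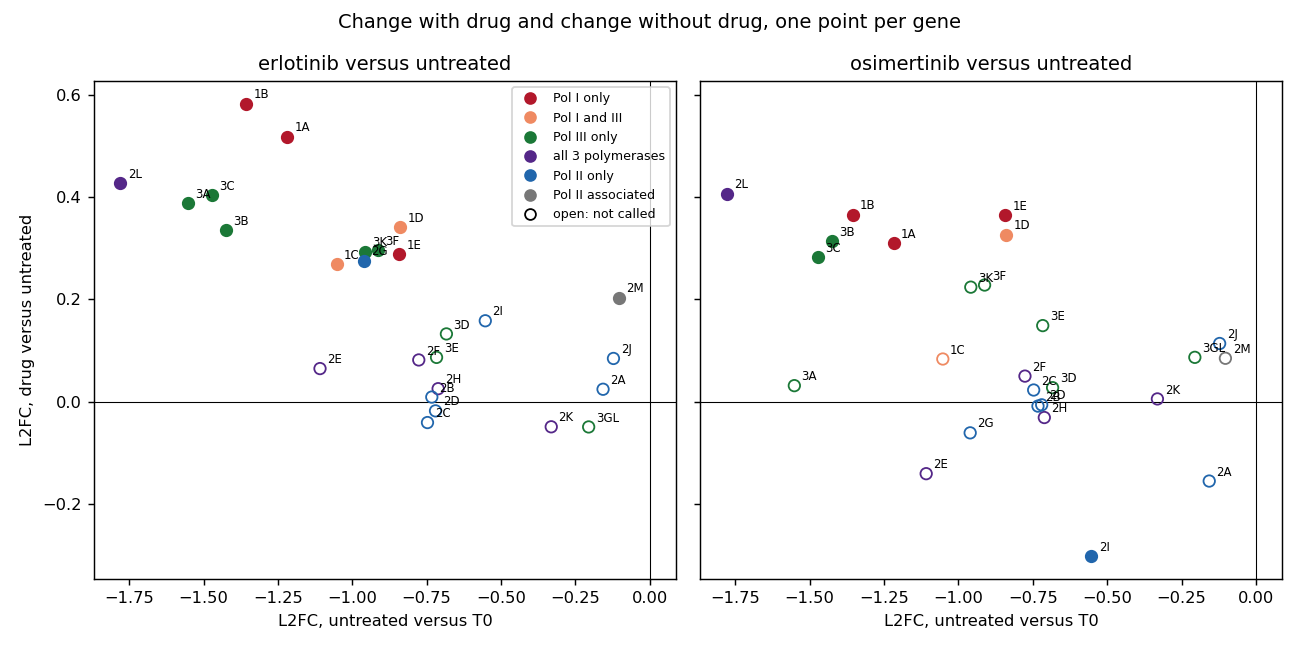
L2FC of 26 tested members with drug relative to untreated (vertical) against its L2FC in untreated relative to T0 (horizontal), for erlotinib on the left and osimertinib on the right; labels leave off POLR and open symbols are members not called. Under erlotinib, the Pol I and Pol III symbols left of −0.8 are all filled and lie between 0.27 and 0.58, and of the Pol II and shared subunits there, POLR2L (2L) and POLR2G (2G) are filled and POLR2E (2E), at 0.06, is open; both axes use the untreated libraries.

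At the level of single guides, 12 of the 101 member guides were called higher under erlotinib and 0 lower, against 1.76% of all guides called higher. At an unadjusted p under 0.05, 32 were higher and 3 lower, and DESeq2 called 8 higher. All 12 belonged to Pol I and Pol III subunits, with 3 against POLR1B, 2 each against POLR1A and POLR1D, and 1 each against POLR1C, POLR1E, POLR3B, POLR3C and POLR3K. Of the 41 guides against Pol II and shared subunits, 0 were called in either direction, with 5 higher and 1 lower at an unadjusted p under 0.05. All guides that passed the filter lay above the non-targeting median for POLR1A, POLR1B, POLR1D, POLR1E, POLR2G, POLR2L, POLR3A, POLR3B, POLR3C, POLR3F and POLR3K. For POLR2G these were 2 guides.

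**Figure D4:**
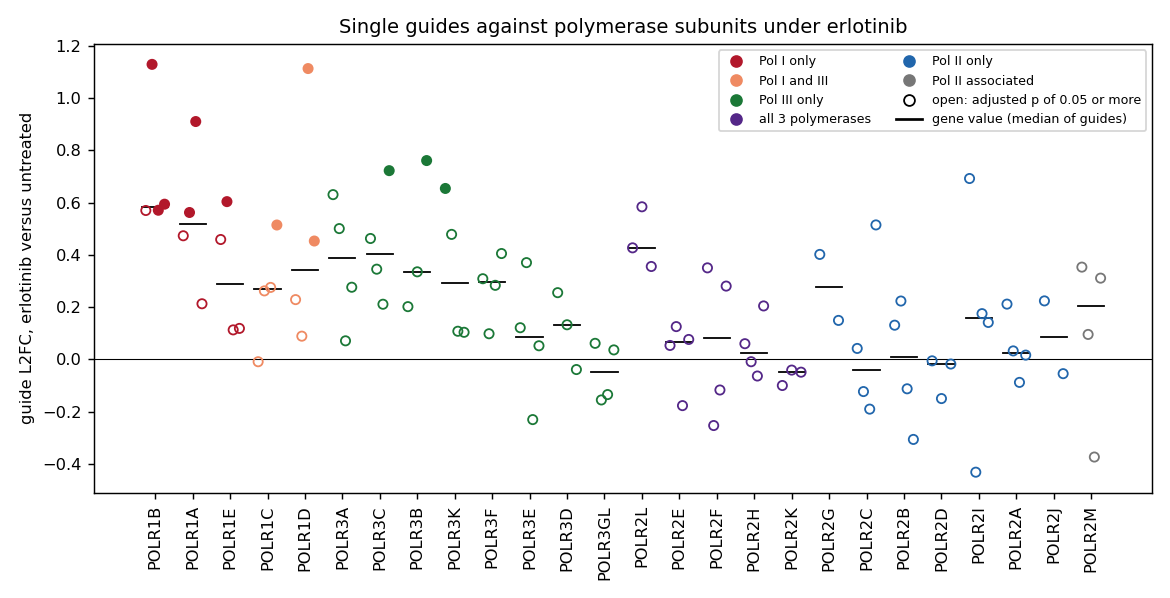
L2FC of the guides against 26 tested members in erlotinib relative to untreated and to non-targeting guides, by gene. Filled points passed the guide-level F-test after adjustment over all guides and bars are gene values; all 12 filled points belong to Pol I or Pol III subunits.

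The calls under erlotinib rested in part on single libraries. Without erlotinib replicate 2, 7 of the 14 members remained called, and those lost included POLR1D, POLR1E, POLR2G, POLR2M, POLR3F and POLR3K. Without untreated replicate 2, POLR1C, POLR1D, POLR2G and POLR2M were lost. With limma, which tests the spread between libraries, 11 members were called relative to non-targeting guides, with POLR1C and POLR2M among those lost, and relative to all genes POLR2L was lost as well (adjusted p = 0.0561).

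Under osimertinib, the 3 members of Pol I only and 2 members of Pol III only were called higher than in untreated. The calls of POLR1A and POLR1B rested on both osimertinib libraries, and that of POLR1E on osimertinib replicate 2. Without osimertinib replicate 2, POLR1A (0.25), POLR1B (0.26) and POLR1E (0.25) were no longer called. Without osimertinib replicate 1, POLR1A (0.30) and POLR1B (0.28) were lost. POLR1A (0.25) was also lost without untreated replicate 1, and POLR1B (0.32) without untreated replicate 2. In osimertinib relative to untreated, 7 of the 27 members were called higher and 1 lower, against 4.19% of all genes higher and 4.41% lower, and the median member stood at 0.08, against 0.01 for all genes. Called higher were 3 of 3 subunits of Pol I only, 1 of 2 of Pol I and Pol III (POLR1D), 2 of 9 of Pol III only (POLR3B, POLR3C), 1 of 5 shared subunits (POLR2L) and 0 of 7 of Pol II only. The class medians were 0.36 for Pol I only, 0.20 for Pol I and Pol III, 0.15 for Pol III only, 0.01 for the shared subunits and −0.01 for Pol II only. Both drug comparisons share the untreated libraries.

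POLR2L stood highest at 0.41 ± 0.33 (n = 3 guides, adjusted p = 0.0254), although osimertinib replicate 2 alone stood next to untreated, as given above. POLR1B followed at 0.37 ± 0.17 (n = 4 guides, adjusted p = 0.00294) and POLR1E at 0.36 ± 0.08 (n = 4 guides, adjusted p = 0.00294). The log2 abundance of POLR1E knockouts relative to T0 was −0.59 and −0.53 under erlotinib, −0.50 and −0.39 under osimertinib, and −0.87 and −0.80 in untreated. For POLR1E, the libraries of both drugs lay above untreated, those of osimertinib the highest. POLR1A stood at 0.31 ± 0.16, POLR1D at 0.33 ± 0.25, POLR3B at 0.31 ± 0.53 (n = 3 guides) and POLR3C at 0.28 ± 0.20, with adjusted p-values between 0.00294 and 0.0332. POLR3F (0.23 ± 0.13, adjusted p = 0.0542) and POLR3K (0.22 ± 0.25, adjusted p = 0.0617) fell short of the threshold. POLR3A, which had been depleted about as far as POLR3C, stood at 0.03.

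POLR2I, a small Pol II subunit that serves the accuracy of transcription, was the member called lower, at −0.30 ± 0.12 (n = 4 guides, adjusted p = 0.00483). Its log2 abundance relative to T0 was −0.64 and −0.45 under erlotinib, −0.78 and −0.94 under osimertinib, and −0.54 and −0.60 in untreated. Both osimertinib libraries lay below all others. The other Pol II and shared subunits apart from POLR2L lay between −0.16 for POLR2A and 0.11 for POLR2J. Among other genes depleted between −2 and −0.5, 16.2% were called higher and 11.5% lower under osimertinib, against 6 higher and 0 lower of 13 Pol I and Pol III subunits, and 1 higher and 1 lower of 9 Pol II and shared subunits. Between −2 and −1, 20% of other genes and 5 of 9 members were called higher, whereas between −1 and −0.5 the members, with 2 of 13 called higher and a median of 0.03, were near the 14.9% and the median of 0.03 of other genes. Of single guides, 4 of 101 were called higher, against POLR1B, POLR1D, POLR3C and POLR3K, and 1 lower, against POLR2B, with 2.41% of all guides called higher and 2.33% lower. Without osimertinib replicate 1, or without osimertinib replicate 2, 3 members were called higher, and 4 were without untreated replicate 2. POLR3B was not called with the mean over guides (0.07, adjusted p = 0.657), with limma (0.18, adjusted p = 0.241), without osimertinib replicate 2 (0.19) or without either untreated replicate, and POLR2L stood at 0.12 (adjusted p = 0.544) without osimertinib replicate 1. POLR2I was no longer called without osimertinib replicate 2, without either untreated replicate, or with the mean over guides.

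Conditional essentiality was measured as the abundance under drug relative to T0. In erlotinib relative to T0, 24 of the 27 members were called lower, against 50.9% of all genes called lower and 0.681% higher, and the median member stood at −0.61, against −0.14 for all genes. POLR2A, POLR2J and POLR2M were not called. Of the members in osimertinib relative to T0, 24 were called lower, against 43.6% of genes lower and 1.43% higher, and the median member stood at −0.75, against −0.14 for all genes. POLR2J, POLR2M and POLR3GL were not called there.

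The class medians lay closer together under erlotinib, apart from the shared subunits, than in untreated. Under erlotinib, the class medians relative to T0 were −0.58 for Pol I only, −0.60 for Pol I and Pol III, −0.61 for Pol III only, −0.66 for Pol II only and −0.92 for the shared subunits. Under osimertinib they were −0.89 for Pol I only, −0.74 for Pol I and Pol III, −0.74 for Pol III only, −0.75 for Pol II only and −0.93 for the shared subunits. The small differences under erlotinib had no fixed order, since Pol I only stood below Pol II only and Pol III only in erlotinib replicate 2. POLR2L was the most depleted member under erlotinib (−1.25 ± 0.12, n = 3 guides), and POLR3A stood at −1.37 under osimertinib.

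Erlotinib and osimertinib were then compared directly, although their doses differ. In erlotinib relative to osimertinib, 5 of the 27 members were called higher and 0 lower (0 lower at an unadjusted p under 0.05, and 0 with DESeq2), against 2.35% of genes higher and 0.94% lower. These were POLR2I (0.47 ± 0.38), POLR3A (0.42 ± 0.27), POLR1B (0.35 ± 0.29), POLR3B (0.34 ± 0.36, n = 3 guides) and POLR1A (0.28 ± 0.21), with adjusted p-values between 0.00879 and 0.0407. By the guide-level F-test, 1 of 101 member guides was called higher, against POLR3K, and 0 lower, with 0.218% of all guides called higher. At an unadjusted p under 0.05 by that test, 18 were higher and 3 lower. The 5 members called had 0 guides called on their own. The log2 abundance of POLR3B knockouts relative to T0 was −1.13 and −0.87 under erlotinib, −1.21 and −1.01 under osimertinib, and −1.46 and −1.36 in untreated. Libraries of the drugs overlapped for POLR3B but for none of the other genes in this set. The set was chosen by this same contrast, so the separation adds no further support to the calls. The doses and the drugs cannot be told apart in these differences. Without osimertinib replicate 1, POLR2I alone of these stayed called, and limma lost POLR1A, POLR3A and POLR3B.

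Genes that work with the polymerases were counted from lists of their known components. All of these counts stand beside 66.9% of all genes called lower in untreated relative to T0, and 6.36% and 4.19% called higher under erlotinib and osimertinib relative to untreated. Among non-member genes depleted between −2 and −0.5 without drug, the shares called higher were larger, at 39.5% under erlotinib and 16.2% under osimertinib. Many of the listed genes were depleted that far, though not all. Of 4 subunits under other symbols, 4 were called lower in untreated relative to T0 and 3 were called higher in erlotinib relative to untreated. In osimertinib relative to untreated, 1 was called higher (CD3EAP), and the 4 values lay between −0.21 and 0.26. Under erlotinib, the Pol I subunit CD3EAP had the highest value, at 0.40 ± 0.12. ZNRD1 of Pol I stood at 0.27 ± 0.36 and CRCP of Pol III at 0.25 ± 0.42, whereas TWISTNB of Pol I stood at −0.15 ± 0.29 and was not called. Of 7 Pol I initiation factors, 7 were called lower without drug (UBTF lowest, at −1.01 ± 0.39), 6 higher under erlotinib (TAF1C highest, at 0.40 ± 0.45) and 3 higher under osimertinib relative to untreated. UBTF binds ribosomal DNA and TAF1C belongs to the promoter selectivity factor of Pol I.

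Of 17 tested general factors of Pol II, 17 were called lower in untreated relative to T0, with a median of −0.82, and 12 were called higher in erlotinib relative to untreated, with a median of 0.31. Under osimertinib, 4 were called higher, with a median of 0.15. CDK7, the kinase of TFIIH, was lowest without drug at −1.40 ± 0.57 and highest under erlotinib at 0.87 ± 0.46. GTF2A2, a subunit of TFIIA, was highest under osimertinib at 0.45 ± 0.21. The difference between these factors and the Pol II subunits was not tested.

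Of 14 tested Pol III initiation factors, 14 were called lower in untreated relative to T0 (SNAPC3 lowest, at −1.43 ± 0.22). In drug relative to untreated, 6 were called higher under erlotinib (GTF3C3 highest, at 0.62 ± 0.26) and 6 under osimertinib (GTF3C5 highest, at 0.54 ± 0.18), both genes encoding subunits of TFIIIC. MAF1, the repressor of Pol III, stood at −0.32 ± 0.09 in untreated relative to T0 and was called for neither drug relative to untreated (0.16 ± 0.05 under erlotinib and −0.11 ± 0.13 under osimertinib). Of 6 polymerase assembly factors, 6 were called lower in untreated, with GPN3 at −1.77 ± 0.32. Under erlotinib relative to untreated, 3 were called higher, with GPN2 highest at 0.60 ± 0.22, and GPN1 was called lower, at −0.23 ± 0.34. Under osimertinib, 2 were called higher and 0 lower. Of the 3 genes of the mitochondrial polymerase system, 3 were called lower without drug, with TFAM at −0.56 ± 0.15 and POLRMT at −0.25 ± 0.09, the second near the all-gene median of −0.17, and 0 were called for either drug relative to untreated.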

How the data were processed

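The values that the authors deposited are unnormalized read counts, 1 per guide and library, from PCR products without molecular identifiers, so precision from counts covers counting error only. The methods name Bowtie2 as the aligner, whereas the submitters' processing notes name Bowtie 1.3.1. The table had 71090 guides, of which 142 were non-targeting. Spreadsheet software had altered 50 gene names to money amounts, and 49 were restored.

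After removal of the lowest 5% of guides by mean normalized count (cutoff 46.0 reads), 67535 remained, including 138 non-targeting ones. All 8 libraries entered a quasi-likelihood fit with TMM scaling (edgeR 4.0.16 under R 4.3.3), with a common dispersion of 0.00537 and 4 degrees of freedom for the residual. A gene's L2FC was the median over its guides (2 or more) minus the non-targeting median. A two-sided empirical p came from 10000 random draws of equally many non-targeting guides. This is modelled on the study's procedure, which instead used DESeq2 and z-scores against fixed groups of such guides. It reflects the spread among those guides rather than among cultures. Alternatives were DESeq2 1.42.0, limma 3.58.1 on a table of genes by libraries (prior count 1), no filter, the mean over guides, a replicate block and each library left out. The steps were tested on simulated data.

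Every member is named but 1, which enters the counts and medians and is not reported here. With that exception, values per library are given for the 3 members with the largest called change in untreated relative to T0 and in each drug relative to untreated, for POLR3G and POLR3GL, and for members called between the drugs. For other lists, the counts and the extreme members called are given. The members and lists were chosen with earlier results of these data known. Guide sequences and an additional osimertinib dose were not analysed here.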

Additional observations from a re-analysis of the deposited data

Results flagged for a closer look

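The members below differed between the drugs when these were compared directly. In erlotinib relative to osimertinib, L2FC was 0.47 for POLR2I and 0.42 for POLR3A, each with an adjusted p of 0.00879 by the draws of non-targeting guides. POLR1B stood at 0.35 (adjusted p = 0.00879), POLR3B at 0.34 (adjusted p = 0.0407) and POLR1A at 0.28 (adjusted p = 0.0184). No guide of these members was called on its own in this comparison. For POLR2I, erlotinib and osimertinib lay on opposite sides of untreated, with 0.16 for erlotinib (not called) and −0.30 for osimertinib. POLR3A was called higher than untreated under erlotinib (0.39) but not under osimertinib (0.03), and POLR1A, POLR1B and POLR3B were called higher under both. Groups of 2 libraries are too small for a search for outlying samples.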

How the results depend on the processing

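With DESeq2, no count of members or of all genes called moved by more than 1.5 times. Over all alternatives, and the subtraction of neighbouring genes where it was made, the 100 calls of members gave 1447 values. The values after that subtraction have no p-value and cannot miss the threshold. Of the 1447, 67 kept their sign but missed the threshold, and 2 turned sign and missed it as well. POLR2A in untreated relative to T0 was 0.052 with limma against the all-gene median, and POLR2M in erlotinib relative to untreated turned without untreated replicate 2 (between −0.020 and 0.36 with each library left out). Members not called changed sign in 94 of 902 values, none above 0.298 in size. The cause of these changes was not tested.

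Members called higher in erlotinib relative to untreated (14) ranged between 7 and 14 with each library left out, and numbered 10 with limma against all genes. For osimertinib relative to untreated, those called higher (7) ranged between 3 and 7. The 1 called lower ranged between 0 and 2, was 0 with the mean over guides and 2 with limma against all genes. Between the drugs, those called higher (5) ranged between 2 and 6, and were 3 with either limma setting. The single guide called lower in osimertinib relative to untreated was 0 with DESeq2.

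Counts of all genes moved as follows. In untreated relative to T0, limma against all genes gave 1773 lower (main 11876) and 242 higher (main 30), limma against non-targeting guides 6 higher and no filter 61 higher. For erlotinib relative to untreated, the lower count (837) was 399 with limma against non-targeting guides, 503 against all genes and between 437 and 855 with a library left out. The higher count (1130) was 743 with limma against all genes, 1702 with the mean over guides and between 581 and 1409 with a library left out. For osimertinib relative to untreated, leaving out a library gave between 353 and 860 lower (784) and between 337 and 912 higher (745). Under erlotinib relative to T0, limma against all genes gave 1907 lower (9040) and 530 higher (121), limma against non-targeting guides 54 higher, and leaving out a library between 72 and 142 higher. Under osimertinib relative to T0, limma against all genes gave 2739 lower (7746) and 1371 higher (254), and leaving out a library between 135 and 257 higher. Between the drugs, the lower count (167) was 43 and the higher count (418) was 200 with limma against non-targeting guides, 51 and 187 against all genes, 380 and 636 without the filter, and between 9 and 168 and between 81 and 421 with a library left out.

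Same-numbered libraries did not deviate together (correlations between −0.00355 and 0.0164 across 17761 genes), and the numbers were not used as pairs. Whether such libraries share a culture or infection is not stated, and these correlations cannot tell. A replicate block gave 25, 14 and 5 members called in untreated relative to T0, erlotinib relative to untreated and erlotinib relative to osimertinib, the counts without it, and changed no count by more than 1.5 times. With 2 libraries a group, small changes may go undetected, most of all for genes with 2 guides such as POLR2G.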
